A study of Mus musculus with 6 samples.

Results

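The 10 genes described here act in meiotic entry and in building the chromosome axis: Stra8, Dazl, Rec8, Stag3, Smc1b, Sycp2, Sycp3, Hormad1, Sycp1 and Syce1. They were chosen by name as meiotic genes, selected on FPKM values of these same 6 libraries that were already known, namely the difference between the groups and the spread among the wild-type libraries. The differences between the groups and that spread are therefore given as descriptions of these genes, without a test. No value threshold chose the members. All 10 were among the 24043 gene rows of the table. RNA-seq values were deposited for 6 libraries of mouse embryonic stem (ES) cells. Of these, 3 came from wild-type cells and 3 from cells called Q-KO, in which, by their genotype label, all G1 cyclins are missing. The G1 cyclins are the D-type and E-type cyclins, which activate kinases before DNA replication. Leukaemia inhibitory factor and inhibitors of MEK (PD184352) and of GSK3 (CHIR99021) were in the medium of both groups, a combination that holds ES cells in a naive state. The labels do not give the deleted alleles, the number of clones or the origin of the lines. They also do not say that replicates were separate cultures, and p-values here reflect no more than how these libraries vary. The labels do not say whether that variation is technical, among the Q-KO libraries or between wild-type replicates 1 and 2. The latter were at 2.67 and 36.9 FPKM for Stra8 and at 7.26 and 8.63 FPKM for Syce1, and the source of their differences was not tested. Wild-type replicate 3 differed from these 2 in its Y-linked transcripts.

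Meiosis is normally confined to germ cells. Retinoic acid induces Stra8, whose protein acts with MEIOSIN as a transcriptional activator of the meiotic programme, in cells made competent by the RNA-binding protein DAZL. The chromosome axis then forms from meiosis-specific cohesin, in which REC8, STAG3 and SMC1B replace mitotic subunits, and from SYCP2, SYCP3 and HORMAD1. The synaptonemal complex joins paired axes through SYCP1, with SYCE1 in its central element. In ES cells many germline genes are silenced by DNA methylation, by G9a and SETDB1, and by a Polycomb complex (PRC1.6) that holds E2F6, MGA and MAX.

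Values are FPKM, fragments scaled to the length of the gene and to the library's mapped fragments, and are thus comparable between genes as levels per length. A library summed to between 525134 and 641715 FPKM, and its number of fragments is not known here. The G1 cyclin genes were set beside the labels. Ccnd3 (141, 53.4 and 62.3 FPKM in wild-type replicates 1 to 3, against 8.29, 10.9 and 13.2 FPKM in Q-KO replicates 1 to 3), Ccnd1 and Ccne2 were lower in every library labelled Q-KO. Ccnd2 was under 1 FPKM in all 6 libraries. Ccne1 was higher in every library labelled Q-KO, at 55.9, 53.9 and 37.5 FPKM in wild-type and 65.3, 73.5 and 87.3 FPKM in Q-KO replicates. The deleted alleles are not given, and FPKM per gene does not show which parts of a gene were read, so the Ccne1 level does not decide its genotype. Directions below are those of the libraries labelled Q-KO. For 5 of 5 Y-linked genes, the value was 0 in wild-type replicates 1 and 2, whereas wild-type replicate 3 (98.6 FPKM in sum) and the Q-KO libraries (70.5, 49.9 and 43.2 FPKM) had values above 0. Markers of ES cells were abundant in both groups (8 genes, summed FPKM of 5850 to 7250 in wild-type and 5700 to 10300 in Q-KO libraries). Most of this sum was Dppa5a, at 3740, 5020 and 3750 FPKM in wild-type and 3680, 4300 and 7780 FPKM in Q-KO replicates. The lowest value of any of these markers was 69.0 FPKM, for Klf4 in wild-type replicates 1 and 2. In these bulk libraries, a few cells with high expression and many cells with low expression cannot be told apart.

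The promoters of 5 members are shown because these genes include the ones highest in the Q-KO libraries (Stra8, Dazl, Rec8 and Sycp3) and the one that was lower there in every library (Hormad1). Each line gives the 250 bases upstream of the RefSeq transcription start, 5′ to 3′ in the direction of the gene, in build GRCm38.p6. The FPKM values were made with build mm9, so these coordinates belong to the RefSeq table and not to the files. Capitals mark the E-box CACGTG, to which MAX dimers bind, and TCCCGC or its reverse complement GCGGGA, the core of an E2F site.
Stra8, chr6:34920698-34920947, + strand: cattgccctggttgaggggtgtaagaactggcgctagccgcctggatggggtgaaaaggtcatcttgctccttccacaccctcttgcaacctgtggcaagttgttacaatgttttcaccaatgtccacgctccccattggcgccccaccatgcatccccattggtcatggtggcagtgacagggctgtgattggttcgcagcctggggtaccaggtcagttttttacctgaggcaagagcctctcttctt
Dazl, chr17:50293621-50293870, - strand: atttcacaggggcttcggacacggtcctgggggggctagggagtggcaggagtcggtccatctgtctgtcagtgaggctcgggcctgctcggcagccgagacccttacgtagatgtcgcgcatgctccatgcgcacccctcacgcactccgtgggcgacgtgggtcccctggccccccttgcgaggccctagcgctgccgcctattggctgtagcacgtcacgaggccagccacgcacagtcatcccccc
Rec8, chr14:55617916-55618165, + strand: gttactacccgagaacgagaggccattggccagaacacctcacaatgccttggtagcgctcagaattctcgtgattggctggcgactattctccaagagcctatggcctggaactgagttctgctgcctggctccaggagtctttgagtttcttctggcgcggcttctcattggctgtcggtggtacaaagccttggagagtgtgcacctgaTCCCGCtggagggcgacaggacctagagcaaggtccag
Sycp3, chr10:88459337-88459586, + strand: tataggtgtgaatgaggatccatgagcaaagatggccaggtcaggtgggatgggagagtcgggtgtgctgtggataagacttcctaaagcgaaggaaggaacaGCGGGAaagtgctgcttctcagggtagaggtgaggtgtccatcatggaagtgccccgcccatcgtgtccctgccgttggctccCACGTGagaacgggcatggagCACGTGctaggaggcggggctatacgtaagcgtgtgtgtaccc
Hormad1, chr3:95559427-95559676, + strand: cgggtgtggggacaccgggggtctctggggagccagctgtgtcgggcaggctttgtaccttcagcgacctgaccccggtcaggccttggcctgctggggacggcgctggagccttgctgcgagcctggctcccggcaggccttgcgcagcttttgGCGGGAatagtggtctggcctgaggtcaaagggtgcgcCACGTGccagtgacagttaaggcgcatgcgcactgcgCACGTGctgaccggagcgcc

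Matches to these 2 motifs did not follow the direction of the members. CACGTG was present in the 250 bases of 4 of the 10 members (Sycp1, Sycp3, Hormad1 and Stag3), and in 6.05% of the 27025 promoters of the same length. Sycp3 and Hormad1, which differed in opposite directions, each held 2 copies of it. TCCCGC, on either strand, was present in 4 members (Rec8, Sycp3, Hormad1 and Smc1b) and in 16.9% of all promoters. Stra8 and Dazl held neither. Of 4 other motifs searched on both strands, exact direct repeats of AGGTCA with the spacer NNNNN or NN, a strict form of the retinoic acid response element, were present in 0 members. Each was present in 0.0074% of promoters (2 of 27025). Strings this rare could hardly occur among 10 genes, and looser forms were not searched. Whether members hold such an element is therefore not answered here. A single AGGTCA, which these repeats contain, was present in Stra8 (2 copies), Sycp3 and Hormad1 and in 13.8% of promoters. TGACG, the core of a cyclic AMP response element, was present in Dazl and Syce1 and in 17.9% of promoters. The number of CpG dinucleotides in the 250 bases was lowest in Stra8 (5) and Sycp2 (7), was 10 in Rec8, 12 in Sycp3, 19 in Hormad1 and 20 in Dazl, and was highest in Smc1b (25) and Stag3 (26). The median was 15 over the 10 members and 6 over all promoters. CACGTG and TCCCGC each contain this dinucleotide, and their shares above were not adjusted for it. A match is a description of these letters, not a bound site.

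Stra8, Rec8, Sycp3 and the weakly detected Sycp2 were higher in each Q-KO library than in any wild-type library. Hormad1 was lower in each, and Dazl, Stag3, Smc1b, Sycp1 and Syce1 overlapped between the groups. Of the 10 members, 9 passed a filter on low values (mean FPKM of 1 or more across the libraries), and Sycp2 did not. Among these 9, the ranges were separate and higher in Q-KO for 3, where 18.2% of the 11573 genes that passed the filter had this pattern, and separate and lower for 1, where 9.44% had it (4 of 9 in either direction, against 27.7%). In the limma fit over all genes, 2 of the 9 (Stra8 and Rec8) passed an adjusted p of 0.05 as higher, against 3.04% of all genes, and 0 passed as lower, against 1.02% (2 of 9 in either direction, against 4.06%). Over the 16 settings, the main fit and the alternatives described at the end, Rec8 passed in 16 and Stra8 in 10. These counts stand on the contrast with which the members were chosen, and nothing is read from them. The median difference in log2(FPKM + 1) was 0.46 over the 9 members and 0.07 over all genes tested.

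**Figure D1:**
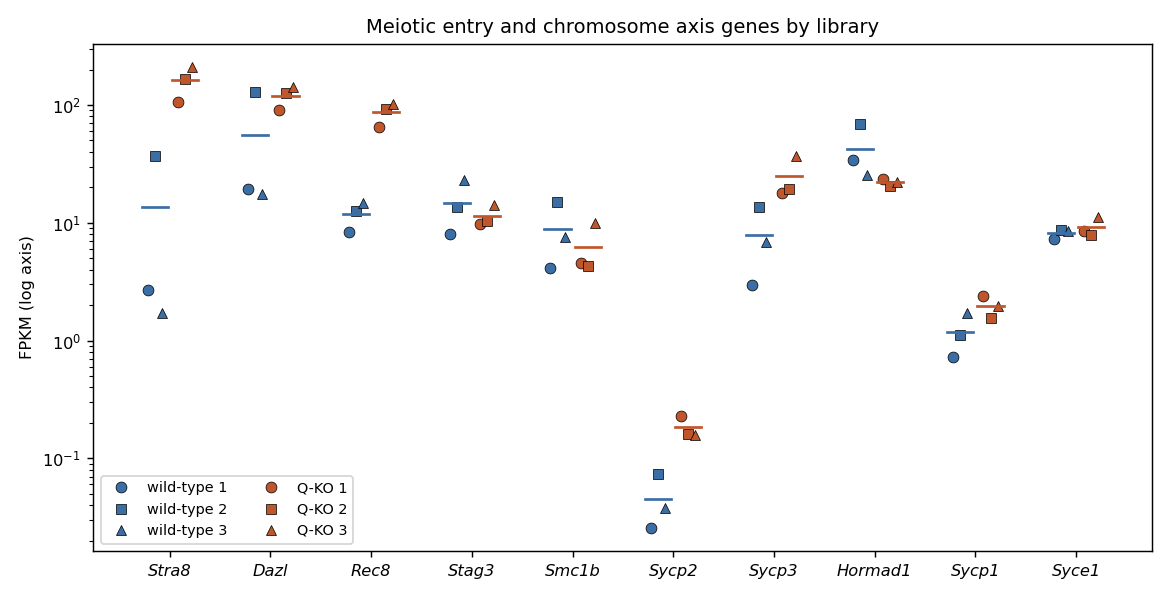
FPKM of the 10 genes (log axis) in each of the 6 libraries; blue is wild-type, orange is Q-KO, marker shapes are the replicates, and horizontal bars are group means. Stra8 and Rec8 are separated between the groups, whereas for Dazl wild-type replicate 2, at 129 FPKM, lies among the Q-KO values.

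Among the regulators of meiotic entry, Stra8 was at 2.67, 36.9 and 1.70 FPKM in replicates 1, 2 and 3 of the wild-type cells, against 107, 167 and 210 FPKM in Q-KO replicates 1, 2 and 3. The groups did not overlap, and wild-type replicate 2 lay between the other wild-type libraries and the Q-KO libraries. The difference in log2(FPKM + 1) was 4.44 (SE 0.88, n = 3 per group), and the ratio of the mean FPKM was 11.8. Leaving out wild-type replicate 2 gave a log2 difference of 5.64. Measured in FPKM, the Q-KO mean was 74.0 times the mean of wild-type replicates 1 and 3 and 4.38 times wild-type replicate 2.

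Dazl was at 19.5, 129 and 17.6 FPKM in replicates 1, 2 and 3 of the wild-type cells, against 90.6, 126 and 143 FPKM in the Q-KO replicates. The groups overlapped because of wild-type replicate 2, which was above Q-KO replicates 1 and 2. The difference in log2(FPKM + 1) was 1.69 (SE 0.67), and it was 2.60 without wild-type replicate 2. The library with a Q-KO level of Dazl had a Stra8 level under each Q-KO library: wild-type replicate 2 was at 1.08 times the Q-KO mean for Dazl and at 0.228 times the Q-KO mean for Stra8.

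Of the 3 members that encode meiotic cohesin subunits, Rec8 was separated between the groups and Stag3 and Smc1b overlapped. Rec8, the kleisin that closes the cohesin ring in meiosis, had 8.32, 12.7 and 14.6 FPKM in wild-type and 64.5, 92.9 and 102 FPKM in Q-KO replicates. Its highest wild-type value was 1.75 times the lowest, where the median ratio was 2.88 over the members that passed the filter and 1.37 over all genes tested. Each Q-KO library was far above the wild-type libraries. The difference in log2(FPKM + 1) was 2.77 (SE 0.24), the ratio of the means was 7.27, and the log2 difference stayed between 2.55 and 2.96 when each library was left out in turn. Unlike that of Stra8, the Rec8 level of wild-type replicate 2 was near those of the other wild-type libraries, at 1.11 times the mean of replicates 1 and 3.

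Stag3, the meiotic STAG subunit, had 7.99, 13.5 and 23.0 FPKM in wild-type and 9.85, 10.4 and 14.1 FPKM in Q-KO replicates. The groups overlapped, with wild-type replicate 3 as the highest library. The log2 difference of -0.24 (SE 0.33) was smaller than its error, and turned to 0.11 without wild-type replicate 3. Smc1b, the meiotic SMC1 subunit, had 4.17, 14.9 and 7.54 FPKM in wild-type and 4.54, 4.27 and 10 FPKM in Q-KO replicates. Here too the groups overlapped and the log2 difference of -0.38 (SE 0.43) was smaller than its error. Without wild-type replicate 2, the highest of the 6 libraries, it was 0.04.

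The mitotic counterparts set these values in scale. Rad21, the mitotic kleisin, was at 101, 107 and 99.5 FPKM in wild-type and at 93.1, 85.8 and 74.9 FPKM in Q-KO replicates, with a log2 difference of -0.28 (SE 0.13) that did not pass the test over all genes (limma adjusted p = 0.257). Taking FPKM of the pair together, Rec8 made up 7.61%, 10.6% and 12.8% in the wild-type and 40.9%, 52.0% and 57.6% in the Q-KO replicates. Smc1a, the mitotic SMC1 subunit, was at 57.3, 55.7 and 58.1 FPKM in wild-type and 42.8, 40 and 40.9 FPKM in Q-KO replicates, lower in each but short of the threshold (log2 difference -0.46, SE 0.11, limma adjusted p = 0.0649). With no filter, and after median-of-ratios scaling or quantile normalization, Smc1a passed (limma adjusted p of 0.0334, 0.0385 and 0.0482). Smc1b made up 13.1% ± 7.31 (SD, n = 3) of the Smc1b and Smc1a level in wild-type and 13% ± 5.81 in Q-KO libraries. For Stag3 beside Stag1 and Stag2, the mitotic STAG subunits, the share was 29.2% ± 9.62 in wild-type and 24.6% ± 6.62 in Q-KO libraries. The differences of Stag1 (0.22, limma adjusted p = 0.456) and Stag2 (-0.14, limma adjusted p = 0.682) did not pass. Of the 3 meiotic subunits, the share of the pair or trio was thus separate between the groups for Rec8 and overlapped for Smc1b and Stag3.

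**Figure D2:**
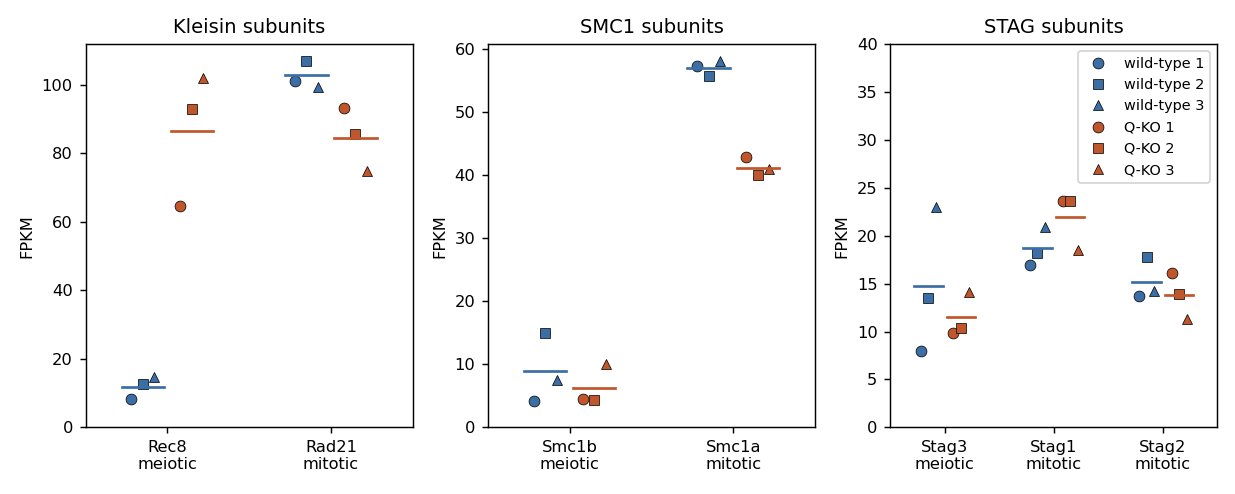
FPKM (linear axes from 0) of meiotic cohesin subunits and their mitotic counterparts in each library, with bars at the group means. Rec8 moves from 8.32 to 14.6 FPKM in wild-type up to 64.5 to 102 FPKM in Q-KO libraries, near Rad21 at 74.9 to 93.1 FPKM, while the groups overlap for Smc1b and Stag3.

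The axis proteins without cohesin function went in different directions. Sycp3, which forms axial filaments, had 2.99, 13.7 and 6.83 FPKM in wild-type and 17.9, 19.3 and 37.1 FPKM in Q-KO replicates. The groups did not overlap, and wild-type replicate 2 came closest to the Q-KO libraries. The difference in log2(FPKM + 1) was 1.66 (SE 0.46), and 2.13 without wild-type replicate 2. Sycp2, the partner of SYCP3 in these filaments, had 0.0257, 0.0730 and 0.0378 FPKM in wild-type and 0.227, 0.162 and 0.158 FPKM in Q-KO replicates. All 6 values were far under 1 FPKM, although the Q-KO libraries were the higher ones. In the Q-KO libraries the mean level was 24.8 ± 10.7 FPKM for Sycp3 and 0.183 ± 0.0389 FPKM for Sycp2 (SD, n = 3).

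Hormad1, which marks axes that have not synapsed, had 34.1, 68.4 and 25.3 FPKM in wild-type and 23.5, 20.5 and 22.3 FPKM in Q-KO replicates. The Q-KO libraries lay close together, just under wild-type replicate 3, and wild-type replicate 2 was the highest. The difference in log2(FPKM + 1) was -0.79 (SE 0.31), and -0.40 without wild-type replicate 2. Hormad1 was therefore the only member whose Q-KO libraries were all lower than every wild-type library.

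Of the synaptonemal complex genes, Sycp1, the transverse filament protein, had 0.729, 1.11 and 1.70 FPKM in wild-type and 2.4, 1.55 and 1.98 FPKM in Q-KO replicates. The groups overlapped at wild-type replicate 3, and the log2 difference was 0.46 (SE 0.22). Syce1, a central element protein, had 7.26, 8.63 and 8.51 FPKM in wild-type and 8.45, 7.85 and 11.2 FPKM in Q-KO replicates. It had the smallest difference of the 9 members that passed the filter (0.14, SE 0.17), and its wild-type libraries were within a ratio of 1.19.

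The order of the members by level changed between the groups at the top. In wild-type libraries the mean was highest for Dazl (55.5 ± 64.0 FPKM, SD, n = 3 per group) and Hormad1 (42.6 ± 22.7 FPKM), whose ranges overlapped. Stag3, Stra8, Rec8, Smc1b, Syce1 and Sycp3 followed between 14.8 and 7.85 FPKM, each overlapping its neighbour in the order. Sycp1 (1.18 FPKM) and Sycp2 (0.0455 FPKM) were lower, with separate ranges. This wild-type order depended on replicate 2. The mean of wild-type replicates 1 and 3 was 29.7 FPKM for Hormad1, 18.6 FPKM for Dazl and 2.18 FPKM for Stra8. In the Q-KO libraries the order began with Stra8 (162 ± 51.7 FPKM), Dazl (120 ± 26.7 FPKM) and Rec8 (86.4 ± 19.5 FPKM). Stra8 and Dazl overlapped, as did Dazl and Rec8, and Rec8 was separate from Sycp3 (24.8 FPKM). Sycp3 overlapped with Hormad1 (22.1 FPKM), and Stag3, Syce1 and Smc1b (11.5, 9.17 and 6.27 FPKM) overlapped in turn. Sycp1 and Sycp2 were again the lowest, with separate ranges.

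The wild-type libraries spread more than the Q-KO libraries for these genes. The highest wild-type value was at least 2 times the lowest for 8 of the 10 members, among them Sycp2, which did not pass the filter, and for 16.4% of all genes tested. In the Q-KO libraries this held for 2 members (Sycp3 and Smc1b) and for 6.63% of all genes tested. The median ratio of highest to lowest over the 9 members was 2.88 in wild-type and 1.58 in Q-KO libraries, against 1.37 and 1.32 over all genes tested. Wild-type replicate 2 was the highest wild-type library for 7 of the 10 members, namely Stra8, Dazl, Smc1b, Sycp2, Sycp3, Hormad1 and Syce1. Among the 9 members that passed the filter it was the highest for 6, and among all genes tested for 36.8%. Replicate 3 was the highest for Rec8, Stag3 and Sycp1. Among the Q-KO libraries, replicate 3 was the highest for 7 of the 10 (40% of all genes tested). It was highest for Stra8, Rec8, Dazl, Sycp3, Stag3, Smc1b and Syce1, and its FPKM sum was also the highest of the 6 libraries, at 641715.

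**Figure D3:**
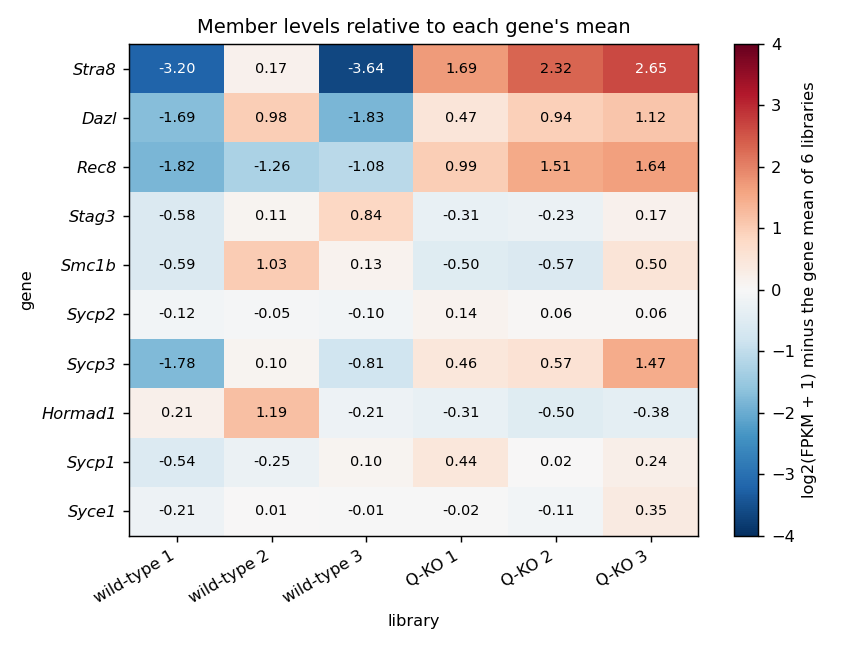
log2(FPKM + 1) of each member minus its mean over the 6 libraries, by library (columns) and gene (rows); red is above and blue below that mean. Wild-type replicate 2 is above the other wild-type libraries for Stra8, Dazl, Smc1b, Sycp3 and Hormad1, but at -1.26 it lies between them for Rec8.

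The presence of Y-linked transcripts and the choice of libraries shifted single members. When presence of Y-linked transcripts was added to the fit, the Q-KO group was in effect set against wild-type replicate 3. There the log2 difference was 5.86 for Stra8, 2.67 for Dazl, 2.46 for Rec8 and 1.64 for Sycp3, so these 4 stayed above 0. It was -0.96 for Stag3, -0.19 for Hormad1 and 0.13 for Sycp1, values that lay over 1 replicate SD from those without the term.

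**Figure D4:**
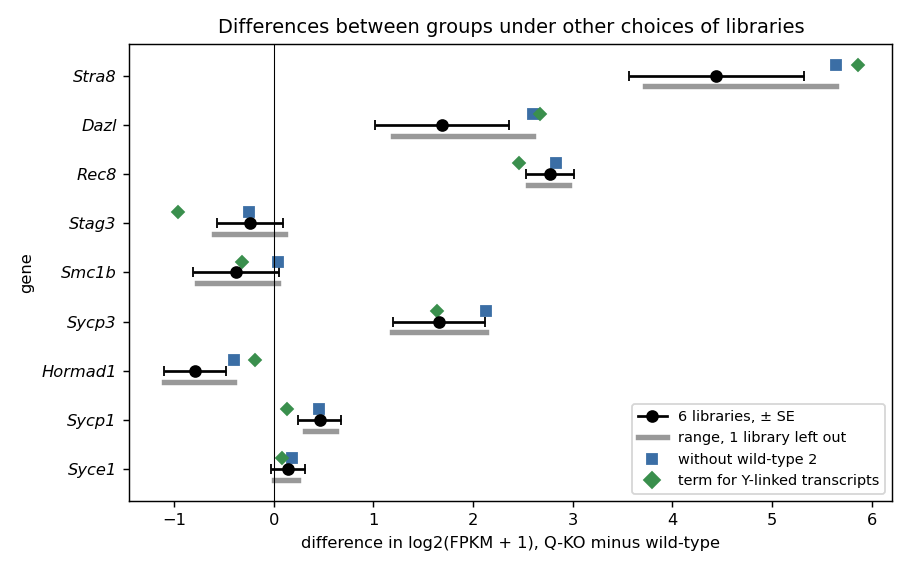
Difference in log2(FPKM + 1), Q-KO minus wild-type, for the 9 members that passed the filter; black points with bars are the value and SE over 6 libraries, grey bars the range when 1 library is left out, blue squares the value without wild-type replicate 2 and green diamonds the value with a term for Y-linked transcripts. Stra8, Dazl, Rec8 and Sycp3 lie above 0 in all of these, and Stag3 and Smc1b span 0 when libraries are left out.

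Other genes of the pathway were taken from lists by role, and these were tested. Among other regulators of meiotic entry and germ cell identity, 3 of 8 tested genes rose and 0 fell (15 were listed and 14 were found in the table), with a median log2 difference of 0.56. The listed gene without a value was Bhmg1, which encodes MEIOSIN. Over all genes tested, 3.04% rose and 1.02% fell, and the median was 0.07, the values beside which the counts of this and the following lists stand. Meioc (listed as Gm1564), which with YTHDC2 promotes the switch from the mitotic to the meiotic cell cycle, went from 3.10, 4.47 and 5.87 FPKM in wild-type to 24.5, 31.2 and 27.8 FPKM in Q-KO replicates. All Q-KO libraries were far above the wild-type ones, and the difference of 2.42 (SE 0.21, limma adjusted p = 0.00267) passed in each of the 6 fits with a library left out (highest adjusted p = 0.0355). Ythdc2 itself was at 4.66, 5.13 and 3.93 FPKM in wild-type and 4.51, 3.82 and 2.28 FPKM in Q-KO replicates (limma adjusted p = 0.439). Nanos3, a germ cell RNA-binding protein, went from 0.734, 1.83 and 3.05 to 6.06, 5.74 and 7.85 FPKM (1.47, SE 0.30, limma adjusted p = 0.0384). Sohlh2, a bHLH factor of germ cells, went from 10.1, 27.2 and 13.7 to 37.7, 45.5 and 47.6 FPKM (1.42, SE 0.31, limma adjusted p = 0.0488), with wild-type replicate 2 again the highest wild-type library. The calls of Nanos3 and Sohlh2 each held in 1 of the 6 fits with a library left out, Nanos3 without wild-type replicate 3 and Sohlh2 without wild-type replicate 2, and only Meioc passed with the term for Y-linked transcripts or after median-of-ratios scaling.

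Among partners of the members in synapsis and on the axis, of 11 tested genes of 15 listed, 1 rose and 1 fell. Of these 11, 4 had a log2 difference above 0 and 7 below 0, where 4712 of all 11573 genes tested were below 0. The median was -0.04, against 0.07 over all genes. Fkbp6, an immunophilin required for synapsis in male meiosis, went from 15.9, 24.5 and 13.9 FPKM in wild-type to 50.4, 60.3 and 66.8 FPKM in Q-KO replicates (1.69, SE 0.22, limma adjusted p = 0.0104). Sgol2, which protects centromeric REC8 from separase and also acts in mitosis, went from 36.9, 40 and 31.6 to 18.5, 18.4 and 17.5 FPKM (-0.95, SE 0.13, limma adjusted p = 0.0121). Both groups of values were separate for these 2 genes, and both calls were lost without wild-type replicate 1, Q-KO replicate 2 or Q-KO replicate 3 (limma adjusted p of 0.0504 to 0.0928). Hormad2, the paralogue of Hormad1, was at 6.16, 9.84 and 14.3 FPKM in wild-type and 7.50, 6.23 and 7.23 FPKM in Q-KO replicates (limma adjusted p = 0.409), and the meiotic kleisin gene Rad21l did not exceed 0.0443 FPKM in any library, with each Q-KO value above the wild-type ones. Hormad2, Rad21l and Ythdc2 were named after their values were seen.

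Among genes of meiotic recombination, none passed the test. Of 29 listed genes 25 were found and 14 tested, of which 0 passed limma's test in either direction. At an unadjusted p under 0.05 there were 7, of which 2 were higher and 5 lower, where 2493 of all 11573 genes tested were under it. The median log2 difference of the list was -0.44, against 0.07 over all genes. The most abundant tested member, Rec114 (listed as 2410076I21Rik), a cofactor of meiotic break formation, was at 59.6, 50.5 and 31.9 FPKM in wild-type and 28, 26.8 and 38.9 FPKM in Q-KO replicates (limma adjusted p = 0.236). Spo11, which makes the meiotic breaks, did not exceed 0.0453 FPKM in any library, and Dmc1, the meiotic recombinase, was at 2.81, 3.8 and 3.56 FPKM in wild-type and 2.94, 1.16 and 2.49 FPKM in Q-KO replicates (limma adjusted p = 0.293). These 2 were named after their values were seen. Cntd1, a cyclin-like crossover factor, was lower in each Q-KO library, at 1.77, 3.24 and 3.58 FPKM in wild-type against 0.49, 0.679 and 1.26 FPKM in Q-KO replicates (-1.08, limma adjusted p = 0.0611). It passed after quantile normalization, in a robust fit, with the replicate number as a block and when Y-linked transcripts were in the model (limma adjusted p of 0.0373 to 0.0461). Hsf2bp, which acts with BRCA2 in meiotic recombination, was also lower in each (32.9, 29.6 and 28.1 FPKM against 17.1, 17.1 and 22.5 FPKM, limma adjusted p = 0.0545), and passed after either scaling and in the robust fit (limma adjusted p of 0.0341 to 0.047). Both were named after their values were seen. With the term for Y-linked transcripts 3 genes of this list fell and 0 rose, and without wild-type replicate 3, 1 rose (Spata22, 0.95, limma adjusted p = 0.0284).

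Of the 15 mitotic cohesin genes and regulators, all tested, 1 fell and 0 rose, with 13 log2 differences below 0 and a median of -0.26. Over all genes tested, 1.02% fell, 4712 of 11573 had a log2 difference below 0, and the median was 0.07. Esco2, which acetylates cohesin during replication, went from 70.5, 69.6 and 72.2 FPKM in wild-type to 30.7, 26.6 and 31.8 FPKM in Q-KO replicates. The groups were far apart and each tight, and the difference of -1.23 (SE 0.12, limma adjusted p = 0.00398) passed in all 6 fits with a library left out (highest adjusted p = 0.0441). Meioc and Esco2 were the only genes of the 6 lists whose calls held in all of these fits.

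Genes of the retinoic acid pathway, which induces Stra8 in germ cells, held 1 rise and 0 falls among 14 tested of 22 listed, with a median log2 difference of 0.08. Over all genes tested, 3.04% rose and the median was 0.07. Aldh1a3, a retinaldehyde dehydrogenase that makes retinoic acid, went from 0.629, 0.534 and 0.684 FPKM in wild-type to 1.70, 3.04 and 5.10 FPKM in Q-KO replicates (1.33, SE 0.29, limma adjusted p = 0.047). That call was lost with no filter, after either scaling, with the replicate number as a block (adjusted p = 0.054), with the term for Y-linked transcripts, and without wild-type replicate 1, wild-type replicate 2, Q-KO replicate 2 or Q-KO replicate 3 (adjusted p up to 0.194). Among genes of this list named after their values were seen, Cdx1 had the Stra8 pattern in the wild-type group, at 4.55, 22 and 1.68 FPKM against 28.6, 39.5 and 36.8 FPKM in the Q-KO replicates (2.35, SE 0.66, limma adjusted p = 0.0926, and 0.00933 without wild-type replicate 2). Wild-type replicate 2 was the highest wild-type library for 9 of the 14 tested genes of this list and for 36.8% of all genes tested. It was so for 7 of the 11 tested synapsis and axis partners and for 1 of the 14 tested recombination genes. Among the 9 was Rarg, a retinoic acid receptor named after its values were seen, at 15.5, 23.8 and 5.62 FPKM. In the fit with the term for Y-linked transcripts Cdx1 rose (3.73, limma adjusted p = 0.0127), and wild-type replicate 3, against which that fit sets the Q-KO group, was its lowest library.

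None of the 22 germline repressor genes, all tested, passed limma's test, and the median log2 difference was -0.03. An unadjusted p under 0.05 was reached by 3, of which 1 was higher and 2 lower, and by 2493 of all 11573 genes tested. The most abundant, the histone deacetylase gene Hdac1, was at 202, 141 and 173 FPKM in wild-type and 200, 229 and 230 FPKM in Q-KO replicates (limma adjusted p = 0.243). Of the PRC1.6 subunits named in the background, E2f6 was at 8.5, 12.4 and 7.94 FPKM in wild-type and 10.6, 10.7 and 9.99 FPKM in Q-KO replicates (limma adjusted p = 0.725). Mga was at 20.1, 21.8 and 20.5 FPKM in wild-type and 19.0, 15.9 and 10.7 FPKM in Q-KO replicates (limma adjusted p = 0.233). Max was higher in each Q-KO library, at 42.8, 43.5 and 43.5 FPKM against 32.7, 28.8 and 31.7 FPKM, short of the threshold (limma adjusted p = 0.0706, and 0.0423 with no filter on low values).

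**Figure D5:**
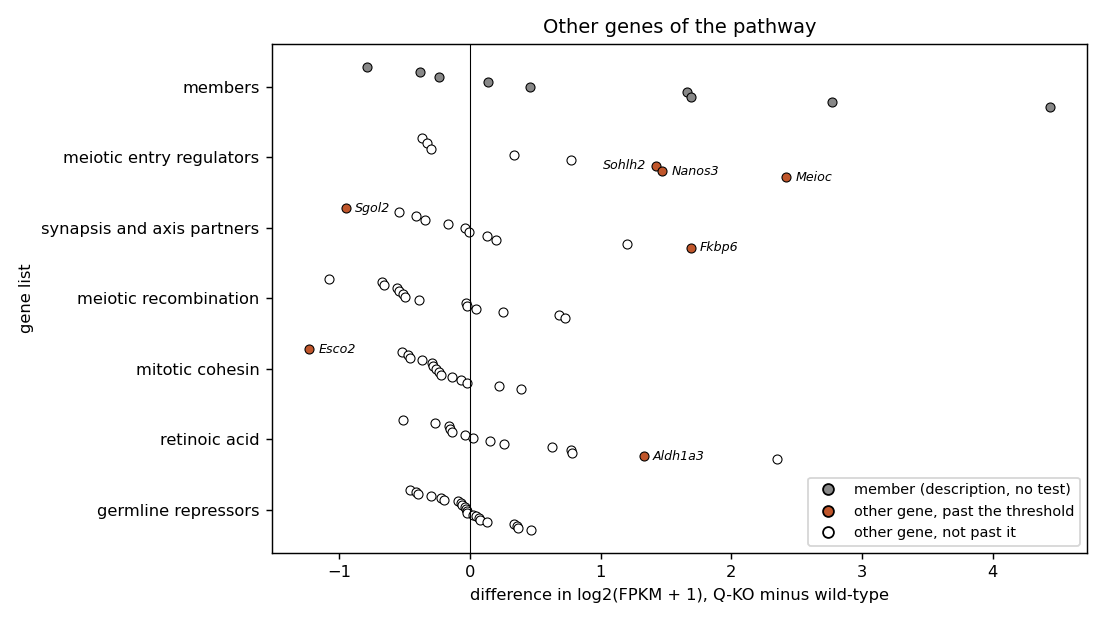
Difference in log2(FPKM + 1), Q-KO minus wild-type, of each tested gene by list; grey points are the members, shown as a description, orange points other genes past an adjusted p of 0.05 (limma), and open points genes not past it. The 7 genes past the threshold are 5 that rose (Meioc, Nanos3, Sohlh2, Fkbp6 and Aldh1a3) and 2 that fell (Sgol2 and Esco2).

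Markers of germ cells and of other cell types gave these levels beside the members. Of 8 markers of primordial germ cells, all tested, 2 rose (Nanos3 and Tfap2c) and 0 fell. A log2 difference below 0 was seen for 5 of them, and for 4712 of all 11573 genes tested. The median was -0.16, against 0.07 over all genes. Summed FPKM was 153 to 387 in wild-type and 160 to 236 in Q-KO libraries. Within these sums, Dppa3 was at 43.0, 113 and 273 FPKM in wild-type and 56.5, 55.9 and 114 FPKM in Q-KO replicates. Ddx4, the germ cell helicase, was at 1.49, 3.18 and 1.08 FPKM in wild-type and 3.60, 3.99 and 6.81 FPKM in Q-KO replicates (limma adjusted p = 0.113). Prdm1, a regulator of germ cell specification, was lower in each Q-KO library, at 3.69, 3.55 and 4.12 FPKM in wild-type against 2.33, 2.38 and 2.29 FPKM in Q-KO replicates (limma adjusted p = 0.104). Dppa3, Ddx4 and Prdm1 were named after their values were seen. Of 9 markers of late spermatocytes and spermatids, 8 were under 1 FPKM in every library, among them the protamine genes Prm1 and Prm2. The ninth, Ldhc, was at 1.86, 1.72 and 7.52 FPKM in wild-type and 3.33, 4.4 and 9.80 FPKM in Q-KO replicates. Of 7 oocyte markers, 6 were under 1 FPKM in every library, and summed levels were 6.62 to 9.17 FPKM in wild-type and 7.05 to 10.5 FPKM in Q-KO libraries. Fibroblast markers (10 genes, as of feeder cells) summed to 137 to 151 FPKM in wild-type and 146 to 260 FPKM in Q-KO libraries, and primitive endoderm markers (7 genes) to 1.26 to 2.20 and 1.86 to 2.78 FPKM. Most of the fibroblast sum was Fn1, at 148, 135 and 148 FPKM in wild-type and 225, 258 and 143 FPKM in Q-KO replicates (limma adjusted p = 0.229). The collagen genes Col1a1, Col1a2 and Col3a1 were at 1.86, 1.16 and 1.35 FPKM in Q-KO replicate 1 and under 1 FPKM in the other 5 libraries. The part of the germ cell and fibroblast markers in the members' differences was not tested.

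The median profile of the 9 members, taken as log2(FPKM + 1) minus each gene's mean, was -0.59, 0.11 and -0.21 in wild-type replicates 1, 2 and 3 and 0.44, 0.02 and 0.50 in the Q-KO replicates. The other named genes nearest to it over the 6 libraries, by root mean square difference, were Chchd7 (0.112), Tceb1 (0.116), Tagln2 (0.120), Rpa3 (0.138) and Lyrm1 (0.140), none of which passed limma's test. The members themselves were spread around that profile, from 0.221 for Sycp1 and 0.271 for Syce1 to 1.15 for Rec8 and 2.24 for Stra8, so that no single profile describes them.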

How the data were processed

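The FPKM values, by gene symbol, came as deposited by the authors. The submitters' processing notes name STAR 2.5, Cufflinks, CASAVA, bcl2fastq 2.16 and the build mm9, without saying what each did. The sources used here give no annotation, strand setting or depth, so no counting interval was computed. An FPKM value also moves with a library's most abundant genes. After 1 stray header row was dropped, 24043 genes remained. Groups and replicate numbers came from the sample titles. Older symbols of listed genes were matched through RefSeq synonyms (GRCm38.p6), from which the promoters also came.

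Values were analysed as log2(FPKM + 1) for genes whose mean over the libraries reached 1 FPKM (limma 3.58.1 in R 4.3.3, intensity trend, two-sided, Benjamini-Hochberg over all genes, threshold 0.05). The pseudocount understates differences of low genes, and a gene low in 1 group can pass the filter through the other group. The fit was tested on simulated data. The members, lists, tests and alternatives were chosen with earlier results of these data known. Named are all members, the G1 cyclins, the mitotic paralogues, up to 4 calls per list, the most abundant tested gene of a list without a call, and the 5 nearest profiles (predicted and clone-named genes left out). Other genes were named after their values were seen. Some genes of the retinoic acid list are not reported here by name.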

Additional observations from a re-analysis of the deposited data

How the results depend on the processing

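Settings tried were leaving out each library, the replicate block, adding Y-linked transcripts to the model (the Y term), 2 scalings, a robust fit, a fit without intensity trend, and other filters (none, or a mean of 5 FPKM) and pseudocount (0.1). The 470 genes that passed over all genes became 266 with a filter at 5 FPKM, where fewer genes were tested, 894 with the Y term, and 28 to 566 with a library left out (94 without wild-type replicate 1, 187, 28 and 85 without Q-KO replicates 1, 2 and 3). The share of rises was 74.9%, and 55.7% and 54.0% after median-of-ratios scaling and quantile normalization, which moved the median log2 difference of all genes from 0.07 to -0.04 and -0.03. The 3 calls among meiotic entry regulators became 1 with a pseudocount of 0.1, after either scaling or with the Y term, and 1 to 2 with a library left out. The 2 calls among synapsis and axis partners ranged from 0 to 3 with a library left out. The 0 calls in meiotic recombination became 1 after median-of-ratios scaling, 2 after quantile normalization, 2 in the robust fit, 1 with the replicate block and 3 with the Y term, and were 0 to 1 with a library left out. The 1 call in mitotic cohesin became 2 with no filter and after either scaling. The 1 call in retinoic acid genes became 0 with a filter at 5 FPKM, after either scaling and with the replicate block, and 5 with the Y term, and was 0 to 1 with a library left out. The 0 calls among germline repressors became 1 with no filter. The causes were not tested. With the replicate block 333 genes passed over all genes. The titles link same-numbered libraries only by that number, and whether these shared a culture or day is not known. The correlations of their deviations from the group means were -0.03, 0.01 and 0.02. Between libraries with unlike numbers they ran from -0.13 to 0.17. With 3 libraries per group, such values cannot settle whether anything was shared. Of the members, Stag3 (-0.24) became 0.11 without wild-type replicate 3 and Smc1b (-0.38) became 0.04 without wild-type replicate 2.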
